A study of Mus musculus with 8 samples.

Results

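The tumour necrosis factor (TNF) ligand and receptor superfamilies were followed in invading macrophages and resident microglia of the mouse brain after a stroke. A gene was a member when its probes carried the array's gene name Tnf or a name starting with Tnfsf (ligands) or Tnfrsf (receptors). This gave 31 genes with 41 probes, of 22441 named genes, of which 11 were ligands and 20 were receptors. The brightest probe stood for each gene. Of these genes, 22 were well above the local background on at least 4 of 8 arrays and were tested, 7 ligands and 15 receptors, among 13222 tested genes in all.

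TNF superfamily ligands are mostly membrane proteins that assemble as trimers and bind receptors of the TNF receptor superfamily on the same or neighbouring cells. Receptors with a death domain can start apoptosis, while others bind TRAF adaptors and lead to NF-kappaB and MAP kinase signalling. In the injured brain, TNF itself is a well known product of microglia and infiltrating myeloid cells, and other ligands of the superfamily steer the survival and co-stimulation of B and T cells.

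The invading macrophages were RFP-labelled cells and the resident microglia GFP-labelled cells, both taken by fluorescence sorting from the ischemic brain of bone marrow chimeric C57BL/6 mice. All mice had a 30 min occlusion of the middle cerebral artery (MCAo) and 7 days of reperfusion, and no group came from an uninjured brain. Each of 4 animals, A to D, gave 1 sample of each kind, and replicates 1 to 4 are these animals. The labels give neither the promoters of GFP and RFP, nor the age of the mice, nor the share of blood cells that came from the graft, so that a sorted population is known by its colour alone. RNA was amplified by a global PCR before it was labelled with Cy3 and hybridised to 8 one-colour arrays. Because these are bulk samples of sorted cells, fewer cells of a type and less RNA per cell cannot be told apart.

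Levels are log2 signals relative to the array's own 75th percentile, so a level of 0 is as bright as that percentile. An array had 45.7% to 57.1% of its probes well above background, and saturation did not occur. Of 12 microglia markers, 9 were lower in macrophages (limma; 5 with the animal as a block), among them P2ry12 (log2 difference -3.21, macrophages minus microglia) and Sall1, which was above background on 1 of 4 macrophage arrays and at least 197-fold lower, and 6 of 12 monocyte and macrophage markers were higher, or 4 in the blocked fit, among them Ccr2 (2.47). Macrophage replicate 2, from animal B, stood apart: it correlated with the other macrophage arrays at 0.828 to 0.867, while those correlated with each other at 0.940 to 0.960. The summed linear signal of 12 endothelial markers was 914 on that array, against 27.8 to 170 on the other macrophage arrays and 7.05 to 32.8 on the microglia arrays, and 5 of the 9 tested passed as higher in macrophages (2 with the animal as a block). Of 5 tested natural killer (NK) cell markers 3 passed as higher, and their list summed to 26.8 on macrophage replicate 2, 3.41 to 5.99 on the other macrophage arrays and 1.17 to 1.71 on microglia arrays. The defining markers of these lists were not at background in macrophages: the endothelial Pecam1 and Cldn5 and the NK cell gene Ncr1 were well above it on all 4 macrophage arrays, and Klrb1c on 3. Other marker lists were highest on that array too. Erythroid markers summed to 199.9 there and to 2.39 to 7.38 on the other macrophage arrays, neutrophil markers to 127.8 and 19.7 to 39.1 and pericyte markers to 11.9 and 0.41 to 1.13. For tested members whose call changed, or whose log2 difference moved by more than 1.5 times, without macrophage replicate 2, the value without it is given.

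The probes of the 5 members that passed the test are shown by their first 30 bases, because each reports 1 place in the transcript only. Positions are those of the whole probe in the array files, in build mm9: Tnfrsf17 at chr16:11320045-11320104 (plus strand), Tnfsf13b at chr8:10035561-10035620 (plus), Tnfsf14 at chr17:57329192-57329251 (minus), Tnfsf8 at chr4:63493871-63493930 (minus) and Tnfrsf18 at chr4:155402941-155403000 (plus). The array files do not say whether these places are coding or untranslated.
Tnfsf14 probe: ttagaacagattgtgccaggcctgttggat
Tnfsf8 probe: caagctgtgctcagaaagtcaaccactgaa
Tnfsf13b probe: cgttgaatctgatccaaaccaggaaatata
Tnfrsf18 probe: ccaccaagagcaccacgtttagcacaagat
Tnfrsf17 probe: tagataatgagcttcctaactggtgtgaag

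Most of the superfamily was measurable in both populations. On all 8 arrays, 17 of the 31 members were well above background, 6 ligands and 11 receptors, as were 10458 of all 22441 named genes. The 11 include Tnfrsf9 through a probe that ends in a repeat, while its other probe was above background on 3 arrays. The 9 members that were not tested were dim or absent. Tnfrsf13c, the BAFF receptor of B cells, Tnfrsf8 (CD30), Tnfsf4 (OX40 ligand), Tnfsf11 (RANKL, the osteoclast differentiation factor) and Tnfsf15 (TL1A, the ligand of DR3) were above background on none of the 8 arrays. Tnfsf18, the GITR ligand, was above background on macrophage replicate 1 alone, and Tnfrsf11b (osteoprotegerin, the soluble decoy of RANKL) on macrophage replicate 2 alone. Tnfrsf25 (DR3) was above background on 1 macrophage array, replicate 2, at 0.92, and on 1 microglia array, replicate 4, at -2.83. Tnfrsf10b, the mouse TRAIL death receptor, was above background on 2 macrophage arrays and 1 microglia array.

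**Figure D1:**
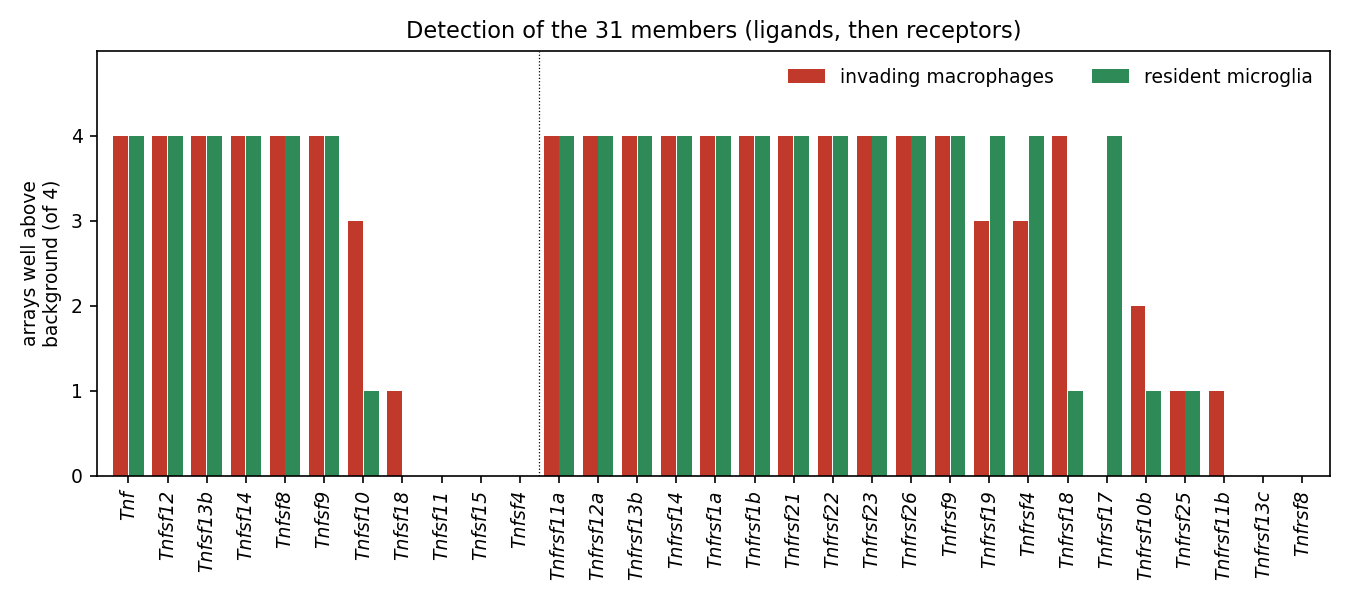
Number of arrays (of 4 per group) on which the brightest probe of each member was well above background, invading macrophages in red and resident microglia in green, ligands left and receptors right of the dotted line. 17 members reach 4 of 4 in both groups, and Tnfrsf17 has 0 macrophage and 4 microglia arrays.

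Of the 22 tested members, 5 passed the test (22.7%), against 7.31% of all 13222 tested genes (limma, adjusted p under 0.05, Benjamini-Hochberg over all tested genes). Higher in macrophages were 3 members, Tnfsf14, Tnfsf8 and Tnfrsf18, against 3.01% of all genes, and lower were 2, Tnfrsf17 and Tnfsf13b, against 4.3% of all genes. With the animal as a block 1 of the 22 passed, Tnfrsf17, against 4.61% of all genes. With the slide as a block 2 passed, Tnfrsf17 and Tnfsf14, against 4.81% of all genes, and the adjusted p was 0.0618 for Tnfsf8, 0.0645 for Tnfrsf18 and 0.0694 for Tnfsf13b (limma). Without macrophage replicate 2, 6 of the 22 passed, Tnfsf12 being added, against 16.8% of all genes. The values of the groups did not overlap for 7 of the 22, against 17.8% of all genes: these were the 5 and Tnf and Tnfsf12. The median log2 difference of the tested members was -0.26, against 0.04 over all tested genes, with 1.11 for the 7 ligands and -0.39 for the 15 receptors, of which 12 had a negative difference. Without macrophage replicate 2 the medians were -0.092 for all tested members, 1.34 for the ligands and -0.097 for the receptors, of which 10 had a negative difference. These medians are over members that passed the filter on dim probes, and they describe the lists without testing them.

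The arrays lay on 2 slides. On the slide of 3 arrays, which held 1 macrophage array, and on that of 5, the log2 difference was -5.55 and -6.00 for Tnfrsf17, 1.13 and 2.01 for Tnfsf14, and 1.81 and 1.06 for Tnfsf8. It was 0.94 and 1.96 for Tnfrsf18 and -1.88 and -1.36 for Tnfsf13b. For the slide of 3 arrays only the difference is given. On the slide of 5 arrays the adjusted p was 0.00759 for Tnfrsf17 and 0.179 to 0.426 for the others (limma). Since the groups of these 5 members do not overlap, their common direction on both slides is no further support.

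**Figure D2:**
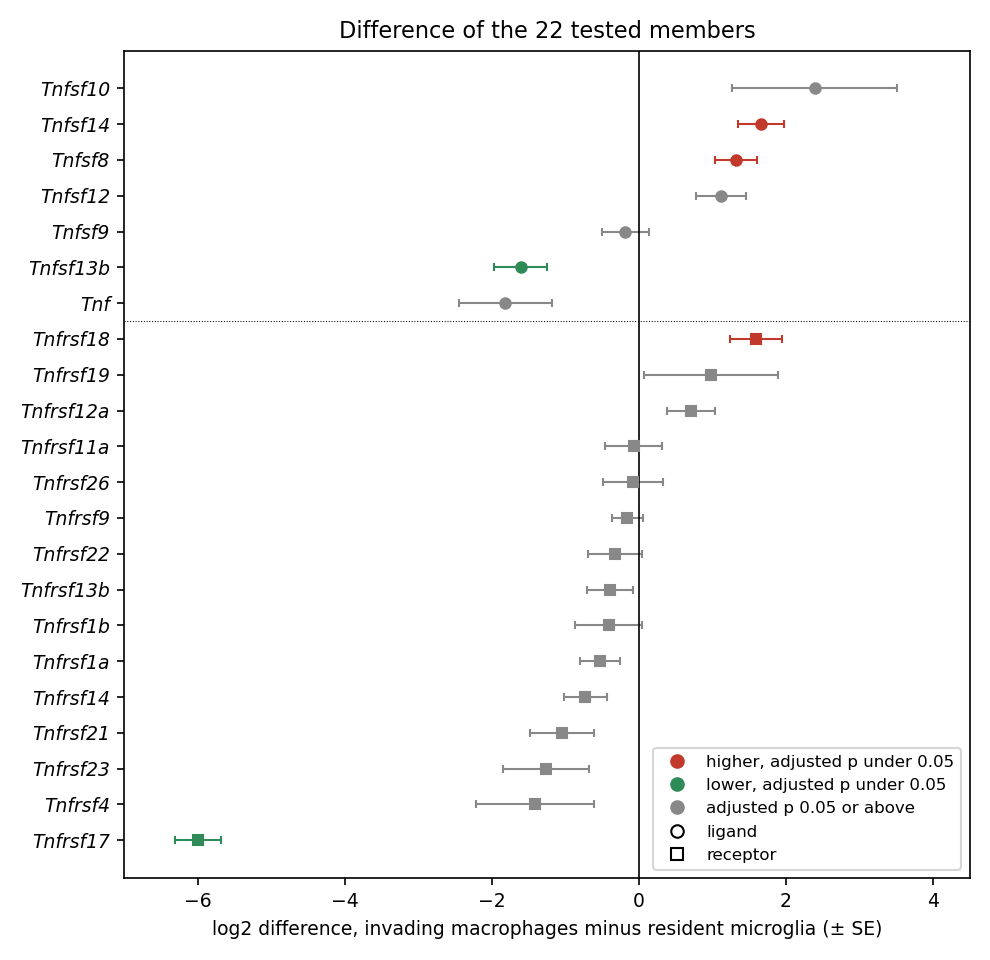
Log2 difference (invading macrophages minus resident microglia, ± SE of the limma fit over 8 arrays) of the 22 tested members, ligands as circles above the dotted line and receptors as squares below it. Red and green mark an adjusted p under 0.05: Tnfrsf17 lies apart at -6.00, and the other 4 called members lie between -1.61 and 1.66.

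Among the ligands, Tnfsf14 and Tnfsf8 were higher in macrophages and Tnfsf13b was lower. Tnfsf14 encodes LIGHT, which binds the herpesvirus entry mediator (HVEM) and the lymphotoxin beta receptor and co-stimulates T cells. Its level was 0.16, -0.15, 0.95 and 0.78 in macrophages of animals A to D, and -0.77, -1.15, -1.53 and -1.44 in their microglia. Every macrophage array was above every microglia array. The log2 difference was 1.66 ± 0.31 (SE), or 3.16-fold, with an adjusted p of 0.0169 (limma). With the animal as a block the adjusted p was 0.0713, and it was 0.0521, 0.0566 and 0.0591 without microglia replicate 2, 3 or 4.

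Tnfsf8 encodes the CD30 ligand, a co-stimulator whose receptor CD30 was above background on no array. Tnfsf8 had levels of 4.11, 3.19, 3.80 and 3.99 in macrophages, and of 2.06, 2.54, 2.31 and 2.89 in microglia. The groups did not overlap, although animal B gave the lowest macrophage value. Tnfsf8 differed by 1.32 ± 0.29 (SE, log2), or 2.50-fold (adjusted p = 0.0281, limma). The call held in 2 of the 8 fits that left out 1 array, those without macrophage replicate 2 or microglia replicate 4, and in the other 6 the adjusted p was at most 0.0832. It was 0.0773 with the animal as a block.

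Tnfsf13b encodes BAFF, the survival factor of B cells, which myeloid cells make. Macrophages had levels of 1.04, 0.13, 1.43 and 1.71, and microglia had levels of 2.87, 2.97, 2.44 and 2.46. All macrophage values lay below all microglia values, the lowest being that of animal B. Tnfsf13b was lower in macrophages by a log2 difference of -1.61 ± 0.36 (SE), or 3.05-fold (adjusted p = 0.0311, limma). Without macrophage replicate 2 the log2 difference was -1.29 and the adjusted p 0.0140. It passed also without macrophage replicate 4, but in none of the other 6 fits that left out 1 array (adjusted p up to 0.0974), nor with the animal as a block (adjusted p = 0.0969).

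Tnf, the ligand that names the family, did not pass. It had levels of -0.54, -2.42, 0.41 and 0.63 in macrophages and of 1.63, 0.70, 1.48 and 1.53 in microglia. The groups did not overlap, Tnf being lower in the macrophages of all 4 animals, and animal B gave the lowest value in either group. The log2 difference was -1.82 ± 0.63 (SE; adjusted p = 0.121, limma), which narrowed to -1.17 without macrophage replicate 2 (adjusted p = 0.0632).

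Tnfsf12 encodes TWEAK, whose receptor Fn14 is the product of Tnfrsf12a. Its levels were 3.99, 2.96, 3.68 and 3.94 in macrophages and 2.90, 2.42, 2.93 and 1.86 in microglia, with no overlap, since the lowest macrophage value, of animal B, still lay just above the highest microglia value. The log2 difference was 1.11 ± 0.34 (SE; adjusted p = 0.0860, limma), and a second probe, on which the groups overlapped, gave 1.01. Without macrophage replicate 2 the difference was 1.34, with an adjusted p of 0.0232. Tnfsf10 (TRAIL, a death-inducing ligand) had its highest level, 0.23, on macrophage replicate 2, against -5.84 to -2.64 on the other macrophage arrays and -5.81 to -3.89 on microglia arrays. It was above background on 3 macrophage arrays and 1 microglia array, and it did not pass (at least 1.84-fold higher in macrophages; fitted log2 difference 2.39 ± 1.12 SE; adjusted p = 0.232, limma). The fitted difference was 1.36 without macrophage replicate 2. Tnfsf9 (the CD137 ligand) did not pass (log2 difference -0.18 ± 0.32 SE; adjusted p = 0.766, limma).

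**Figure D3:**
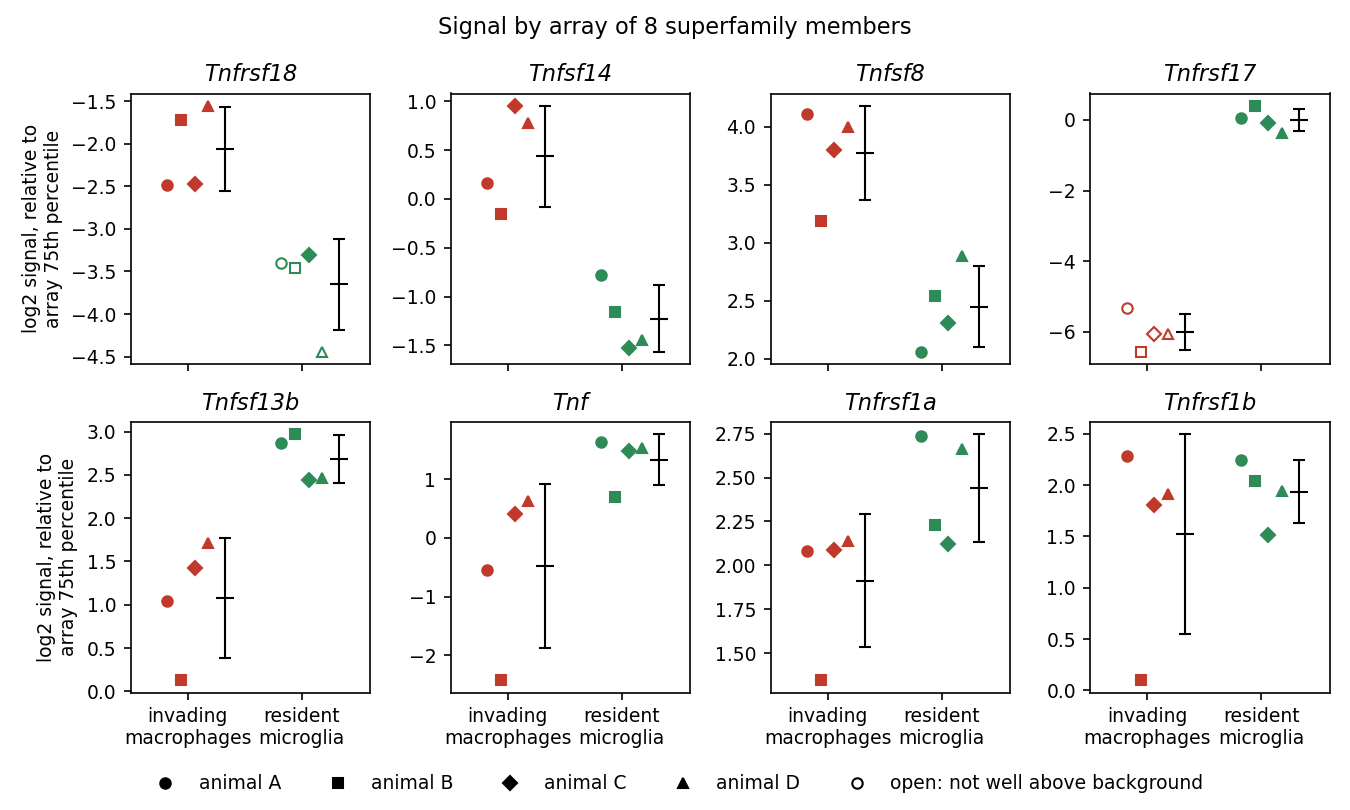
Level on each array (log2 signal relative to the array's 75th percentile; symbols mark the animals) of the 5 called members and of Tnf, Tnfrsf1a and Tnfrsf1b, with invading macrophages in red left of resident microglia in green, and mean ± SD over 4 arrays in black. Open symbols were not well above background; the y axes differ between panels, and Tnfrsf17 has macrophage values between -6.56 and -5.32 and microglia values between -0.37 and 0.40.

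Among the receptors, Tnfrsf17 was lower in macrophages and Tnfrsf18 was higher. Tnfrsf17 encodes BCMA, a receptor of BAFF and APRIL best known from plasma cells. In macrophages its probe read -5.32, -6.56, -6.06 and -6.05, not well above background on any array, and in microglia 0.06, 0.40, -0.08 and -0.37, well above background on every array. The macrophage readings therefore give only a bound. Against the lowest signal that was still well above background on each array, Tnfrsf17 was at least 15.9-fold lower in macrophages (fitted log2 difference -6.00 ± 0.31 SE; adjusted p = 2.06e-05, limma). It passed with the animal as a block (adjusted p = 0.00233), with the slide as a block (adjusted p = 7.28e-05) and in each of the 8 fits that left out 1 array (adjusted p at most 0.000279). Tnfrsf17 met the filter on dim probes through its microglia arrays alone. All these adjusted p values rest on macrophage readings that were not well above background.

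B cell markers were read beside it. The defining B cell gene Ms4a1 was above background on none of the 4 macrophage arrays and on none of the 4 microglia arrays. Of 8 B cell markers 2 were tested, Cd79b and Cr2, and 0 passed (limma; 0 also at an unadjusted p under 0.05). The 8 markers summed to a linear signal of 1.17 to 2.14 on macrophage arrays and of 1.62 to 4.16 on microglia arrays. No separate list of plasma cell markers was read, and the part of B cells or plasma cells in the Tnfrsf17 signal was not tested.

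Tnfrsf18 encodes GITR, a co-stimulatory receptor known from regulatory T cells and also found on NK cells. Macrophages had levels of -2.49, -1.71, -2.47 and -1.55, all well above background, while microglia had readings of -3.40, -3.46, -3.31 and -4.44, of which that of replicate 3 alone was. The groups did not overlap. Tnfrsf18 was at least 2.61-fold higher in macrophages (fitted log2 difference 1.59 ± 0.35 SE; adjusted p = 0.0297, limma). The call was kept without macrophage replicate 1, 2 or 3 and lost in the other 5 fits that left out 1 array (adjusted p up to 0.0742), and it was lost with the animal as a block (adjusted p = 0.1002). NK cell markers were higher in macrophages too, with a median log2 difference of 3.44 over the 5 tested, and their part in this result was not tested. Of 7 tested T cell markers 0 passed (limma; 0 also at an unadjusted p under 0.05), and the T cell genes Cd3e and Cd3d were each above background on 1 macrophage array, and on 3 and 0 microglia arrays. The gene next to it on chromosome 4, Tnfrsf4 (OX40), whose probe lies 12.2 kb away, did not pass (at least 1.95-fold lower in macrophages; fitted log2 difference -1.42 ± 0.80 SE; adjusted p = 0.317, limma), with a fitted difference of -1.92 without macrophage replicate 2. Tnfrsf4 read -5.24, -1.17, -1.84 and -2.50 in macrophages, the first not above background, and -1.79, -1.56, -1.22 and -0.52 in microglia.

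The main TNF receptors did not pass. Tnfrsf1a, the broadly made receptor with a death domain, had levels of 2.08, 1.34, 2.09 and 2.14 in macrophages and of 2.74, 2.23, 2.12 and 2.66 in microglia. It was lower in the macrophages of all 4 animals, but the groups overlapped (log2 difference -0.53 ± 0.27 SE; adjusted p = 0.273, limma). The difference was -0.34 without macrophage replicate 2. The second probe gave -0.79 over all arrays, and on it the groups did not overlap. Tnfrsf1b, the TNF receptor of immune and endothelial cells, had levels of 2.28, 0.10, 1.81 and 1.91 in macrophages and of 2.24, 2.04, 1.52 and 1.94 in microglia. The groups overlapped, and the single low value came from macrophage replicate 2. The log2 difference was -0.41 ± 0.46 (SE; adjusted p = 0.623, limma) over all arrays and 0.061 without that array (adjusted p = 0.888).

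The other receptors were read against their ligands. Tnfrsf14 (HVEM, a receptor of LIGHT) had a log2 difference of -0.73 ± 0.29 (SE; adjusted p = 0.163, limma) with a second probe at -0.46, while its ligand Tnfsf14 was higher. Tnfrsf13b (TACI, the other receptor of BAFF and APRIL) was well above background on all 8 arrays with each of its 3 probes, and these gave log2 differences of -0.39, -0.08 and 0.16, with an adjusted p of 0.485 for the first (limma), whose difference was -0.16 without macrophage replicate 2. Of the 3 receptors of BAFF, BCMA was thus lower in macrophages, TACI did not pass and the BAFF receptor was above background on no array. Tnfrsf12a (Fn14) had a log2 difference of 0.71 ± 0.33 (SE; adjusted p = 0.228, limma).

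Further receptors that did not pass include those with a death domain or a decoy role. Tnfrsf21 (death receptor 6, DR6) had levels of 1.68 to 3.93 in macrophages and of 3.70 to 4.21 in microglia, the lowest on macrophage replicate 2 (log2 difference -1.05 ± 0.44 SE; adjusted p = 0.185, limma), and the difference was -0.63 without that array. The mouse genes Tnfrsf22 and Tnfrsf23, which encode decoy receptors for TRAIL, lie beside Tnfrsf26 on chromosome 7, with 32.6 kb and 39.1 kb between their probes. Their log2 differences were -0.33, -1.27 and -0.08 (Tnfrsf22, Tnfrsf23 and Tnfrsf26; adjusted p = 0.627, 0.230 and 0.925, limma). Without macrophage replicate 2 they were -0.097, -0.67 and 0.22, the last with its sign turned. A second Tnfrsf22 probe was at least 1.38-fold lower in macrophages, and a second Tnfrsf23 probe was above background on 1 array only. Tnfrsf11a (RANK) differed by -0.07 ± 0.39 (SE; adjusted p = 0.935, limma), and by 0.21 without macrophage replicate 2. Tnfrsf19 (TROY) read 1.71 on macrophage replicate 2 and between -3.07 and -1.67 on the other macrophage arrays, against -2.65 to -2.06 on microglia arrays. Its log2 difference was 0.98 over all arrays (adjusted p = 0.553, limma) and -0.05 without replicate 2.

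Among the 22 tested members macrophage replicate 2 was the lowest macrophage array for 15 and the highest for 3, while each of the other macrophage arrays was the lowest for 1 to 4. It was the highest for Tnfsf10, Tnfrsf19 and Tnfrsf4, and also for Tnfrsf25 and Tnfrsf11b, which were not tested. Endothelial, NK cell, erythroid, neutrophil and pericyte markers were highest on the same array, and their part in these values was not tested.

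**Figure D4:**
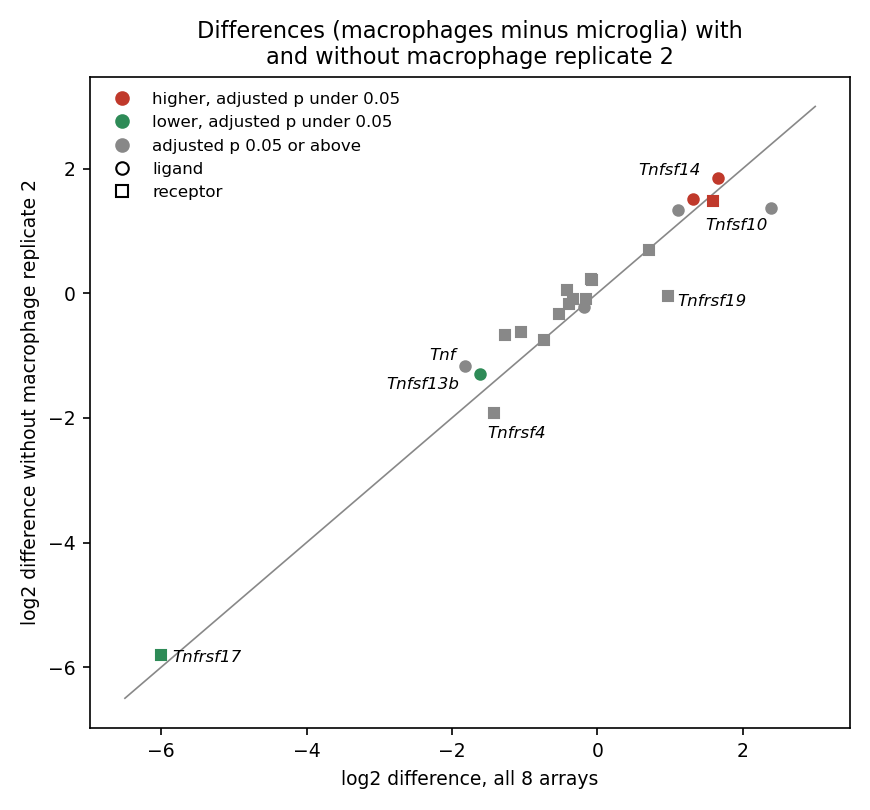
Log2 difference (invading macrophages minus resident microglia) of the 22 tested members over all 8 arrays (x axis) and without macrophage replicate 2 (y axis), ligands as circles and receptors as squares, colours as called over all arrays; the line marks equal values. Tnfsf10 moves to 1.36 and Tnfrsf19 to -0.05, while Tnfrsf17 stays at -5.81.

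Tnfrsf9 (CD137, a co-stimulatory receptor of T and NK cells) was read by 2 probes, of which 1 was well above background on all 8 arrays and the other on 3. Their last 30 bases are shown because one of them ends in a repeat, given in capitals.
Tnfrsf9 first probe, chr4:150319582-150319641 (mm9, plus strand): taaaatcaGTGTGTGTGTGTGTGTGTGTGT
Tnfrsf9 second probe, chr4:150319101-150319160 (mm9, plus strand): taacatatttgtctttaccttttttaaatc
The first read 7.12, 6.88, 7.18 and 7.19 in macrophages and 7.43, 6.92, 7.29 and 7.36 in microglia, a log2 difference of -0.16 ± 0.21 (SE; adjusted p = 0.688, limma) that was -0.086 without macrophage replicate 2. The second was above background on 2 macrophage arrays and 1 microglia array, which leaves only a bound of at least 1.04-fold higher in macrophages. The repeat in the first probe covers 22 bases. On the whole array 55 probes held at least 9 TG units in a row, and all 55 were well above background on all 8 arrays, against 38.2% of all 55681 gene probes. Which RNA the first probe bound was not tested.

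Promoter windows, from 250 bases before to 50 bases after the annotated start, were given for 24 of the 31 members (RefSeq, build GRCm38.p6). They were searched on both strands for 6 short motifs, and overlapping matches were counted. GAAANNGAA, a core of interferon response elements, occurred in 6 of 24 members against 9.76% of 27025 genes, and among the 5 called members it occurred in Tnfrsf17, Tnfsf13b and Tnfsf8. TGANTCA (AP-1 type) occurred in 4 of 24 members against 8.97% of genes, GAGGAA (PU.1 type) in 10 against 31.3%, TTCNNNGAA (STAT type) in 6 against 9.55%, GGGNNTTTC (NF-kappaB type) in 3 against 5.06%, and TATAAA in 5 against 15.7%. Of the 5 called members, GAGGAA likewise occurred in 3, Tnfrsf17, Tnfrsf18 and Tnfsf14. TGANTCA occurred in 2 of the 5 and each of the remaining motifs in 1. The windows of both members that were lower in macrophages, Tnfrsf17 and Tnfsf13b, are shown with the GAAANNGAA match in capitals. That of Tnfsf14, which was higher, is shown with its TGANTCA match in capitals. Neither motif was limited to 1 direction. TGANTCA occurred in Tnfsf13b too, where its window below holds it in small letters, and GAAANNGAA occurred in Tnfsf8, which was higher. Tnfsf13b had 2 annotated starts, and the one with the GAAANNGAA match is given. A match describes letters only and shows no binding.
Tnfrsf17 promoter, chr16:11313559-11313858 (GRCm38.p6, plus strand): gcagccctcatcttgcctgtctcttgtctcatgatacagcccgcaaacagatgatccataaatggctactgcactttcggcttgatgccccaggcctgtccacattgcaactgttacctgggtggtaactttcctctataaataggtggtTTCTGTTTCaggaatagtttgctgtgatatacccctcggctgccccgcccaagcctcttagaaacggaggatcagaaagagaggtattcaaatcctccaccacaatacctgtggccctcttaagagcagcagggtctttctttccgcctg
Tnfsf13b promoter, chr8:10006383-10006682 (GRCm38.p6, plus strand): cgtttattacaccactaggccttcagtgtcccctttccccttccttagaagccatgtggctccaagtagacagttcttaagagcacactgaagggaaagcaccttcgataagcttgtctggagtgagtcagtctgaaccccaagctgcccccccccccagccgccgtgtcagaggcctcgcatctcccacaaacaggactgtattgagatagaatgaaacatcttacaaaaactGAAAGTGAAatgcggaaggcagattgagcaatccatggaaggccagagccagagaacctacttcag
Tnfsf14 promoter, chr17:57194132-57194431 (GRCm38.p6, minus strand): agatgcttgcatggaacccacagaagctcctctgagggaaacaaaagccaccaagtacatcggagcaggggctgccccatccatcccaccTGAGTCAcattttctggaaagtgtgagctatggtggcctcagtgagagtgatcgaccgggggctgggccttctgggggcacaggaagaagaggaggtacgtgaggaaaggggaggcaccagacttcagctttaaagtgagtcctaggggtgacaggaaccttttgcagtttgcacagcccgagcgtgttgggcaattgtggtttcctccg
Counted from the annotated start, the first capital lies at -100 for Tnfrsf17, where the match is on the opposite strand, at -16 for Tnfsf13b and at -160 for Tnfsf14.

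Other genes of the pathway were taken from 6 lists: superfamily members under other names, receptor adaptors and kinases, death signalling, NF-kappaB subunits and regulators, ectodomain release, and genes induced by or regulating TNF. Of 95 tested genes in these lists, 2 were higher and 2 were lower in macrophages (4.21%, against 7.31% of all genes). Among the 7 tested superfamily members under other names 1 passed. This was Cd40, a co-stimulatory receptor of antigen-presenting cells. It had levels of -0.08, -0.70, 0.77 and 1.32 in macrophages. Its readings in microglia were -3.79, -2.41, -1.08 and -1.93, of which the first was not above background. The groups did not overlap, and Cd40 was at least 6.14-fold higher in macrophages (adjusted p = 0.0409, limma). Cd40 passed with the animal as a block (adjusted p = 0.0352, limma) but not with the slide as a block (adjusted p = 0.0625). Of the fits that left out 1 array it passed only in those without macrophage replicate 2 or microglia replicate 3. Ltbr, the lymphotoxin beta receptor and the other receptor of LIGHT, differed by -0.24 (adjusted p = 0.700, limma).

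Of 26 adaptors and kinases, 1 was lower and 0 were higher in macrophages (limma; 1 was higher at an unadjusted p under 0.05). Traf5, an adaptor of several co-stimulatory receptors, had levels of -1.31, -1.56, -1.79 and -0.77 in macrophages and of 0.30, -0.01, 0.19 and -0.17 in microglia. The groups did not overlap, and Traf5 was 2.70-fold lower in macrophages (adjusted p = 0.0166, limma). But it missed the threshold with the animal as a block (adjusted p = 0.0660) and without microglia replicate 2 or 3 (adjusted p = 0.0502 and 0.0556). Traf1, an adaptor induced by NF-kappaB, was above background on 3 of 4 microglia arrays, which leaves a bound of at least 4.48-fold higher in macrophages. The groups overlapped. Its fitted log2 difference was 2.16 with an adjusted p of 0.0884, and of 0.0327 with the animal as a block (limma). It passed in 0 of the 8 fits that left out 1 array. None of the 16 death signalling genes, 19 NF-kappaB genes or 9 genes of ectodomain release passed (limma), while 3, 4 and 2 of them had an unadjusted p under 0.05, as did 24.5% of all tested genes. Among the 9, Timp3, an inhibitor of the protease that sheds TNF, read 4.22 on macrophage replicate 2, where endothelial markers were highest, and -0.99 to 0.05 on the other macrophage arrays, against -3.97 to -2.42 on microglia arrays. It was above background on 3 of 4 microglia arrays, which leaves a bound of at least 13.6-fold higher, and its fitted log2 difference was 3.83 over all arrays (adjusted p = 0.0601, limma) and 2.69 without that array (adjusted p = 0.00774). The part of endothelial cells in it was not tested.

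Of 18 genes induced by or regulating TNF, 1 was higher and 1 was lower in macrophages. Csf1, the growth factor of macrophages and microglia, had levels of 0.95, 1.79, 1.11 and 1.01 in macrophages and of 2.65, 2.77, 3.23 and 2.37 in microglia, with no overlap. It was 2.91-fold lower in macrophages (adjusted p = 0.0148, limma), and missed the threshold in 1 of 8 fits, without microglia replicate 2 (adjusted p = 0.0502). Tnfaip8l1, a relative of a TNF-induced gene, was above background on all 4 macrophage arrays and on no microglia array, and was at least 1.97-fold higher in macrophages (adjusted p = 0.0169, limma). It missed the threshold only without microglia replicate 2 among the fits that left out 1 array (adjusted p = 0.0575). Tnfaip8l1 met the filter on dim probes through its macrophage arrays alone, and its adjusted p values rest on microglia readings that were not well above background. Without macrophage replicate 2 the lists held 16 called genes in place of 4, while the share of all genes called was 16.8% in place of 7.31%.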

How the data were processed

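Cells were sorted, their RNA was amplified by a proprietary global PCR and 250 ng of cDNA was labelled per the labels' protocols, so that transcript proportions may differ from those in the cells. Per the file headers, Agilent Feature Extraction 10.7.3.1 read the scans, and the intensity the authors deposited is its background-subtracted processed signal, which no step had yet made comparable between arrays. The log2 table that the authors deposited served as an alternative only. The medians of its columns lay between 4.604 and 4.606, and each column correlated with its array at 0.996 or more. Its scale and direction follow the arrays, and its normalization is not given in the sources used here. Detection was the deposited flag for signal well above background.

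From these, log2 signals were scaled to each array's 75th percentile after control and outlier spots were left out, and spots of a probe were averaged. Of 55681 probes 29359 were well above background on at least 4 of 8 arrays. Probes were named by accession (27509), symbol (3549) or unique synonym (404) through the RefSeq GRCm38.p6 table, 24219 staying unnamed, while members were taken by the array's own gene name. The brightest passing probe stood for a gene. Macrophages were compared with microglia by limma 3.58.1 (R 4.3.3), two-sided, tested on simulated data. Tables were made in Python 3.11.15 (numpy 2.4.6, pandas 2.3.3). Where a group was not above background on all arrays, its signals were raised to that array's floor, the lowest signal of any probe well above background there, which gives the folds written "at least". The animals pair the samples by design. Deviations from group means correlated within animals A to D at 0.0706, 0.115, 0.0870 and -0.0010. The highest correlation of an animal's macrophages with the microglia of another animal was -0.0051, 0.0367, 0.0373 and 0.0663. For animal D it was thus above the value within the animal. The arrays lay on 2 slides, of 3 and 5 arrays. The members and lists were chosen with earlier results of these data known. Named were all members, the called genes of each pathway list and the defining markers; the choice of Ltbr, Traf1, Timp3, the TG repeat, the motifs and the neighbouring genes came after a look at the values. 1 defining marker is not reported here by name. The number of arrays limits the precision. Alternatives were other scalings, background correction, filters, probe rules, blocks and left-out arrays.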

Additional observations from a re-analysis of the deposited data

Results flagged for a closer look

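A single array lay far from the other 3 of its group in 4 of the 44 groups of values examined (Dixon's test, 4 arrays each), or 9.09%, where chance gives about 1 in 20. Tnfrsf1a had a level of 1.344 on macrophage replicate 2, against 2.081 to 2.136 on the other macrophage arrays. Tnf had a level of 0.7013 on microglia replicate 2, from the same animal, against 1.478 to 1.634 on the other microglia arrays. Tnfrsf18 had a reading of -4.443 on microglia replicate 4, against -3.459 to -3.309 on the others, and without that array its adjusted p was 0.0693 (limma). Tnfsf10 had a level of -3.894 on microglia replicate 3, the only microglia array on which it was well above background, against -5.811 to -5.558 on the others.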

How the results depend on the processing

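Apart from the fits within a slide, the call of Tnfrsf17 held in all 19 alternatives that gave it a value, with fitted log2 differences of -6.22 to -2.38. All of these rest on macrophage readings that were not well above background. The other 4 called members lost the call in some: Tnfrsf18 in 11 of 19, Tnfsf13b in 11 of 20, Tnfsf8 in 10 of 20 and Tnfsf14 in 5 of 20. Tnfrsf17 and Tnfrsf18 had no value where a probe had to be above background on all arrays. Tnf and Tnfrsf1a passed in none and were lower in all 20. Tnfrsf1b had a positive difference of 0.10 with slide and animal as blocks and of 0.14 within the slide of 3 arrays, and its difference ranged from -0.67 to 0.061 when 1 array was left out, 0.061 being the value without macrophage replicate 2. With the animal as a replicate block 0 members were higher and 1 was lower, and over all genes 236 were higher and 373 lower (limma; 4 members were higher at an unadjusted p under 0.05). The slide as a block gave 1 member higher and 1 lower, and 216 genes higher, and with the slide and the animal as a replicate block 0 were higher (limma; 4 at an unadjusted p under 0.05) and 1 lower. Centring on the median shifted all genes by 0.21, raised the higher calls to 682 (59.2% of calls, against 41.2%) and left 1 member lower. The percentile over always-detected probes shifted them by -0.16, gave 854 lower calls and left 28.8% of calls higher. With no filter on dim probes 239 genes were higher, and 1 member was higher and 1 lower. With probes above background on all 8 arrays 345 genes were lower, 53.0% of calls were higher, and 1 member was lower. In the pathway lists, higher calls were 4 with median centring, 1 with no filter and 0 with the all-array filter (limma; 9 at an unadjusted p under 0.05), and lower calls were 4 with normexp background correction and 1 with the animal as a replicate block, with or without the slide. Leaving out 1 array gave 168 to 1248 genes higher and 324 to 967 lower, 0 to 4 members higher and 1 to 2 lower, and 0 to 10 pathway genes higher and 0 to 6 lower, the highest counts being those without macrophage replicate 2. The block on the animal changed no other call among the members and pathway genes named here than those given beside them. The causes of these differences were not tested.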

Other observations

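A pair of probes that the array names BC096441, on chromosome 11, carry accessions that include that of Tnfsf13, the gene of APRIL, the second ligand of BCMA and TACI, and were not among the members because of that name. The brighter one, at chr11:69496733-69496792 (mm9, minus strand), read 5.86, 4.18, 5.84 and 5.53 in macrophages and 4.11, 3.01, 4.31 and 3.34 in microglia. It was higher in the macrophages of all 4 animals, although the groups overlapped, since animal B gave the lowest value in each. The log2 difference was 1.66 ± 0.46 (SE), with an adjusted p of 0.0646 over all arrays, 0.0324 with the animal as a block and 0.00824 without macrophage replicate 2 (limma). The other probe gave a log2 difference of 1.01. The signals of these probes cannot be assigned to 1 gene of this locus here.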
